A study of Danio rerio with 12 samples.

Results

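Transcripts in the regrowing caudal fin of zebrafish larvae were compared at 3 days post amputation (dpa) between larvae exposed to TCDD and larvae exposed to vehicle. TCDD (2,3,7,8-tetrachlorodibenzo-p-dioxin) is a persistent dioxin. The comparison uses 6 of the 12 arrays in the series: 3 titled as TCDD at 3 dpa and 3 titled as vehicle at 3 dpa, chosen from these titles alone. The larvae of both groups were of the AB strain and had their fins cut at 2 days post fertilization. The TCDD larvae were then held for 1 h in water with 0.5 ng/mL TCDD, and the vehicle larvae for 1 h in water with DMSO, the solvent. Each array measured RNA from a pool of 150 fins, of which 100 ng entered a two-round labelling protocol. The remaining 6 arrays hold TCDD and vehicle fins at 2 dpa and are used here to estimate the spread and to set the earlier day beside the later. Values are log2 of the deposited ratio of a probe set. For 12018 of the 15502 probe sets tested, a value of 0 is the probe set's own median over the 12 arrays. For the other 3484 that median lies below 0. A difference of 1 between groups is a doubling, and levels of different probe sets cannot be compared. Differences are TCDD minus vehicle, with the standard error (SE) and adjusted p of limma, a linear model fitted across all probe sets. A probe set is called where the adjusted p is under 0.05. Each group has n = 3 arrays, and values in a sentence run from replicate 1 to replicate 3. The replicates are pools, so the p-values measure the spread between pools of fins and not between larvae.

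TCDD binds the aryl hydrocarbon receptor (AHR), a cytoplasmic transcription factor that moves to the nucleus, pairs with ARNT and switches on genes of xenobiotic metabolism such as the CYP1 enzymes. Zebrafish carry several AHR genes, and ahr2 is the one through which TCDD acts in most of their tissues. A cut larval fin heals under a wound epidermis and then grows back through proliferation of mesenchymal cells beneath it, with new matrix and with Wnt, FGF and other signals. TCDD is known to block this regrowth in zebrafish larvae.

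The 3 dpa arrays of each group were not alike. Control transcripts added at hybridisation averaged −0.068, 0.344 and −0.076 on TCDD replicates 1 to 3. They averaged 0.264, 0.260 and 0.292 on vehicle replicates 1 to 3, so TCDD replicate 2 lay with the vehicle arrays. Every array of 2 dpa, TCDD or vehicle, was at the lower level, from −0.143 to −0.012. At 3 dpa the level thus differed between TCDD and vehicle on all arrays but TCDD replicate 2. The 5′ minus 3′ difference of the GAPDH control probe sets was 0.185, 0.228 and 0.486 on the TCDD arrays, above 0.082, −0.102 and −0.096 on the vehicle arrays. Over the 12 arrays, the component that took 42.1% of the variance placed TCDD replicates 1 and 3 at 39.7 and 49.7, TCDD replicate 2 at −5.05, and the vehicle arrays from −33.1 to −16.7. The component that took 18.7% set TCDD replicate 2 at −38.8 and vehicle replicate 3 at −36.2. These arrays also had the lowest weights when limma estimated array quality (0.280 and 0.371 on a scale where the highest array had 2.54). TCDD replicate 3 of 2 dpa came next, at 0.392. On the component of 42.1% it lay at 46.8, against 1.17 and 1.26 for TCDD replicates 1 and 2 of 2 dpa. The part of these features in the results was not tested. Total counts of calls, and the counts and medians of the main gene lists, are also given without both TCDD replicate 2 and vehicle replicate 3.

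Of the 15502 probe sets tested, 89 were called at 3 dpa (0.574%), 44 higher (0.284%) and 45 lower (0.29%) with TCDD. For all 89 the 3 TCDD arrays did not overlap with the 3 vehicle arrays. Such a separation was seen for 2525 probe sets in all (16.3%), 1238 with TCDD higher (7.99%) and 1287 with TCDD lower (8.3%). An unadjusted p under 0.05 was found for 2434 (15.7%). The median difference over all probe sets was 0.011, with quartiles at −0.175 and 0.153. A difference above 1 in size was fitted for 281 probe sets with TCDD higher and 319 with TCDD lower, and 61 of these 600 were called. The called probe sets had a median difference of 1.33 on the higher side and −1.39 on the lower side, and the smallest called difference was 0.521 in size. Of the 89, 68 carry a usable gene symbol (37 higher and 31 lower, 64 genes), 1 carries a clone name and 20 carry no single symbol. Leaving out TCDD replicate 2 gave 391 calls, which held 88 of the 89. Leaving out both TCDD replicate 2 and vehicle replicate 3 gave 143 calls, which held 50 of the 89. The 6 arrays of 3 dpa fitted alone gave 6 calls, of which 5 were among the 89: rspo1, the probe set annotated to mpx, fzd7a, kera and klf2a. A fit that blocked on the hybridisation level compares, at 3 dpa, TCDD replicate 2 alone with the vehicle arrays. Only the TCDD group of 3 dpa held both levels. The number of calls from that fit is therefore given only among the processing alternatives, with this limit.

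**Figure D1:**
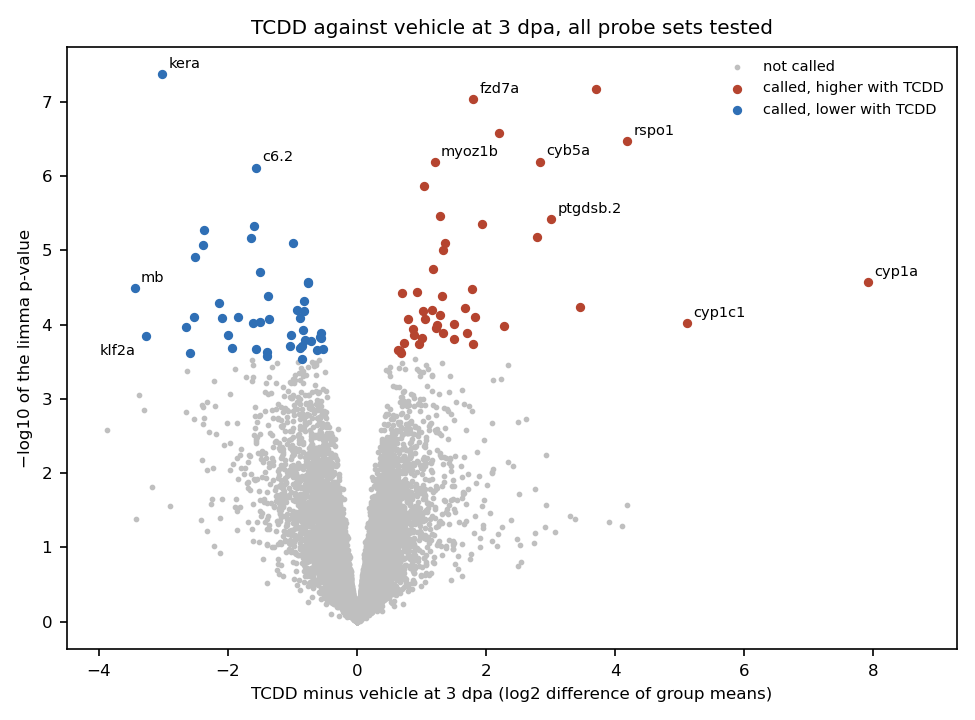
Each point is 1 of the 15502 probe sets, placed by its TCDD minus vehicle difference at 3 dpa (log2, horizontal) and by the −log10 of its limma p-value (vertical). Called probe sets are red where TCDD was higher (44) and blue where it was lower (45), and grey points were not called. The cyp1a probe set lies far to the right at 7.92, and kera and fzd7a are among those of lowest p.

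The increases at the top of the list, cyp1a and cyp1c1, are genes that the AHR is known to induce. cyp1a encodes a cytochrome P450 enzyme whose induction is the standard marker of AHR activation. Its probe set read 1.04, 2.1 and 0.98 on the TCDD arrays, against −7.97, −5.37 and −6.29 on the vehicle arrays. All 3 TCDD arrays lay at least 6 units above every vehicle array, and the vehicle arrays differed among themselves by more than 2 units. Means were 1.37 ± 0.63 with TCDD and −6.55 ± 1.32 with vehicle (SD, n = 3 each). The difference was 7.92 (SE 1.09, adjusted p = 0.0163). On the linear scale that is 242-fold (95% interval 44.9 to 1310), a figure that depends on vehicle ratios close to 0. With 0.1 added to every ratio the log2 difference was 4.57. cyp1c1 encodes a related AHR-induced enzyme. The cyp1c1 probe set with the larger change read 0.76, 1.79 and 1.13 on the TCDD arrays, against −5.97, −3.95 and −1.73 on the vehicle arrays. The groups did not overlap, but the vehicle readings spanned more than 4 units. The difference was 5.11 (SE 0.82, adjusted p = 0.0285). A further cyp1c1 probe set rose by 0.97 (SE 0.17), and the remaining one read 0.12 (adjusted p = 0.588). No probe set carries the symbols cyp1b1, cyp1c2, ahrra or ahrrb.

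tiparp encodes an enzyme of the poly-ADP-ribose polymerase family that is induced by the AHR and represses it. Its probe set read 0.77, 0.93 and 0.49 on the TCDD arrays, against −0.54, −0.65 and −0.57 on the vehicle arrays, a narrow spread in each group and no overlap. It rose by 1.32 (SE 0.19, adjusted p = 0.0199). sult6b1, a cytosolic sulfotransferase gene, read 0.60, 0.49 and 0.34 on the TCDD arrays, against −0.68, −0.69 and −1.31 on the vehicle arrays and rose by 1.37 (SE 0.16, adjusted p = 0.00684). These 4 genes were the called members of the AHR response list, of which 9 genes were measured, 7 with a difference above 0 and 2 below. The lists, this one included, were chosen with earlier results of these data known. The median difference of the list was 1.0, against 0.00467 over the 8793 genes with a symbol, of which 0.739% were called in either direction. Without TCDD replicate 2 and vehicle replicate 3 the median was 1.16 and 2 of the 9 were called, both higher. Over all 8793 genes 58 were then called higher and 41 lower. Not called in the list were ptgs2a, the inducible prostaglandin synthase (1.0, adjusted p = 0.214), and nqo1, a quinone reductase that mammals induce through AHR and NRF2 (−0.33, adjusted p = 0.275). The receptor gene ahr2 was not called either, at 0.52 (adjusted p = 0.198), with 0.33, 0.62 and −0.03 with TCDD, against −0.34, −0.22 and −0.07 with vehicle. None of the 13 measured genes in the list of the AHR, its partners and repressors was called. tiparp, which represses the AHR and was called, is not in that list, and neither ahrra nor ahrrb was measured.

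Further enzymes of xenobiotic and redox metabolism were among the calls. cyb5a encodes cytochrome b5, which passes electrons to P450 enzymes and to fatty acid desaturases. It read 1.13, 1.25 and 0.64 on the TCDD arrays, against −1.89, −1.44 and −2.17 on the vehicle arrays. No vehicle array came within 2 units of a TCDD array, and cyb5a rose by 2.84 (SE 0.26, adjusted p = 0.00143), a 7.16-fold change (4.8 to 10.7). The reductase gene cyb5r1, which feeds electrons to cytochrome b5, was not called (0.68, adjusted p = 0.104). gsto2, an omega-class glutathione transferase gene, rose by 0.70 (SE 0.10, adjusted p = 0.0195). It was the called gene of the 39 measured in the oxidative stress list, against 0.739% called over all genes. The median of that list was 0.08. Of 13 measured genes of sulfotransferases and conjugation sult6b1 was the one called, with 6 above 0, 7 below and a median of −0.01. The median log2 ratio of these 13 was −0.29, −0.30 and −0.47 on the TCDD arrays, against −0.07, −0.23 and −0.11 on the vehicle arrays. The sulfotransferase genes sult2st1 and sult2st2 read −1.20 (adjusted p = 0.278) and −1.02 (adjusted p = 0.157). The calls of cyb5a and sult6b1 held whichever of the 12 arrays was left out. That of cyp1a was lost without TCDD replicate 3 or vehicle replicate 1 (adjusted p up to 0.0734), those of tiparp and gsto2 without 3 of the 12 arrays each (up to 0.0757 and 0.0729, without vehicle replicates 1 and 2), and those of cyp1c1 without 7 and 9 (up to 0.0929 and 0.119). In the fit to the 3 dpa arrays alone cyp1a was not called (adjusted p = 0.0578).

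A probe set that the platform annotation gives to mpx, the neutrophil myeloperoxidase gene, had the lowest p of the higher calls together with fzd7a. It read 0.99, 1.77 and 1.83 on the TCDD arrays, against −2.17, −2.21 and −2.14 on the vehicle arrays, and the vehicle values lay within 0.07 of each other. The difference was 3.70 (SE 0.27, adjusted p = 0.000479). The other 3 probe sets annotated to mpx read −0.14, 0.09 and 0.00, none called. The name of the called mpx probe set shares its cluster number with the probe set of cyp1a, so which transcript it measures is uncertain. The uncalled mpx probe sets at −0.14 and 0.09 have the same cluster number, so it does not set the called one apart. The 21 measured genes marking neutrophils and macrophages had scores (the median log2 ratio of the list on an array) of 0.33, −0.36 and 0.50 on the TCDD arrays and 0.13, −0.14 and −0.62 on the vehicle arrays, which overlap. The mpx-annotated probe set was their call, against 0.739% of all genes called. Their median difference was 0.22, and it was 0.43 without TCDD replicate 2. In the fit that blocked on the hybridisation level, which sets TCDD replicate 2 alone against vehicle, it was −0.17.

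**Figure D2:**
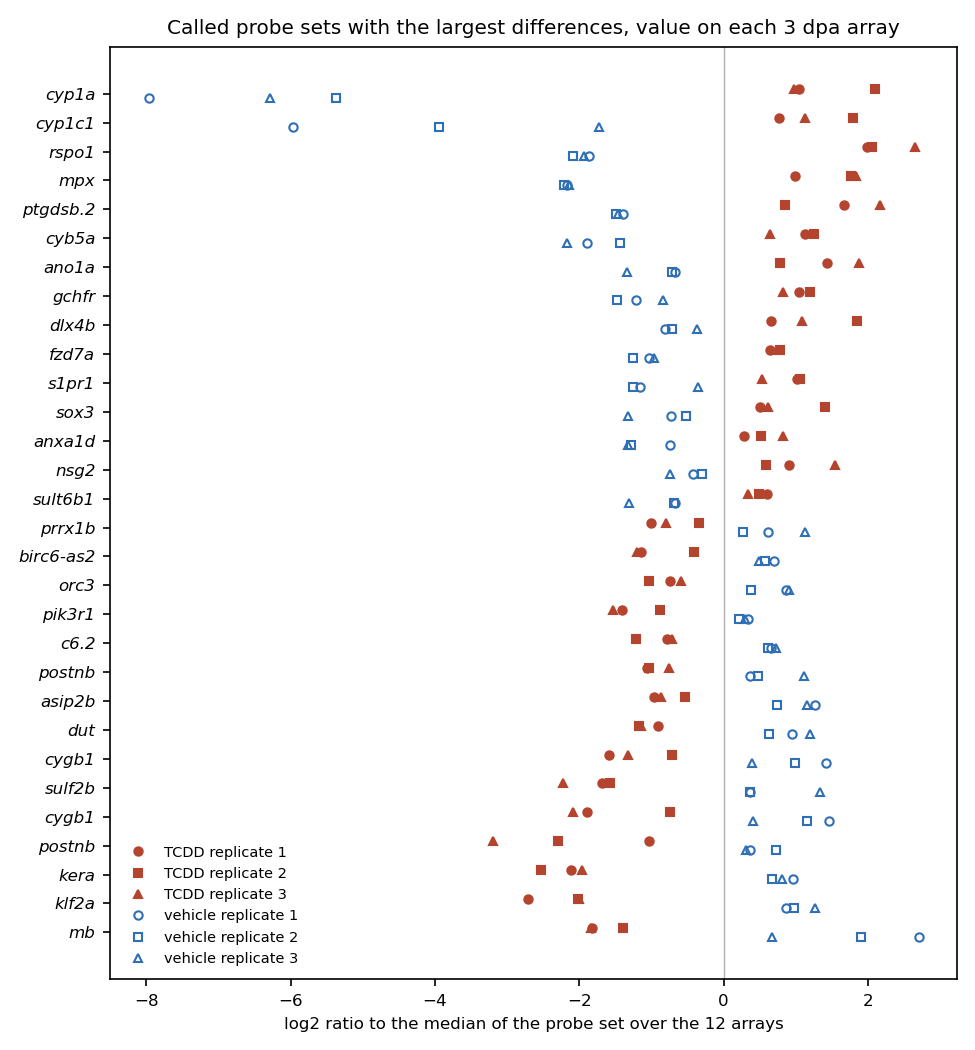
The log2 ratio (horizontal) is shown on each 3 dpa array for the 15 called probe sets with a symbol that rose most and the 15 that fell most, TCDD as filled red symbols above vehicle as open blue symbols, with a symbol shape for each replicate. TCDD and vehicle points do not overlap in any line, and vehicle spreads widest for cyp1a and cyp1c1.

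Genes of Wnt signalling followed. Secreted Wnt proteins act through Frizzled receptors, and R-spondins strengthen the signal by keeping those receptors at the surface. rspo1 (R-spondin 1) read 1.99, 2.05 and 2.65 on the TCDD arrays, against −1.87, −2.09 and −1.93 on the vehicle arrays. Each group was tight and they lay almost 4 units apart. Means were 2.23 ± 0.37 with TCDD and −1.96 ± 0.11 with vehicle (SD, n = 3 each). The gene rose by 4.19 (SE 0.36, adjusted p = 0.00104), or 18.2-fold (10.5 to 31.6). The Frizzled receptor gene fzd7a read 0.64, 0.78 and 0.75 on the TCDD arrays, against −1.04, −1.25 and −0.96 on the vehicle arrays, again with no overlap, and it rose by 1.80 (SE 0.13, adjusted p = 0.000479). notum1b encodes a secreted esterase that strips Wnt proteins of their lipid and so inactivates them, in flies and vertebrates. It read 0.76, 0.82 and 0.86 on the TCDD arrays, against −0.62, −0.83 and −0.11 on the vehicle arrays and rose by 1.34 (SE 0.22, adjusted p = 0.0327). csnk1e, a casein kinase gene whose product acts on Wnt and clock proteins, rose by 1.17 (SE 0.18, adjusted p = 0.0254).

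Neither notum1b nor csnk1e is in the 3 Wnt lists, whose calls stand beside 0.739% called over all genes. Of 10 secreted ligands and enhancers rspo1 was called, of 21 receptors and intracellular components fzd7a was called, and of 18 feedback and target genes none was called. The medians of these lists were 0.02, −0.08 and −0.01. axin2, a feedback inhibitor that is a common reporter of Wnt signalling, read −0.46, −0.42 and −1.34 on the TCDD arrays, against 0.29, 0.24 and 0.18 on the vehicle arrays, a difference of −0.98 (adjusted p = 0.086) with no overlap. dkk1b, a secreted inhibitor, read 1.52 (adjusted p = 0.143), the receptor gene fzd10 −0.87 and −1.23 on its 2 probe sets, and the Wnt5 co-receptor gene ror2 −0.49 (adjusted p = 0.0756). The calls of rspo1 and fzd7a held in every fit tried, among them the fit to the 3 dpa arrays alone. Those of notum1b and csnk1e were lost without 7 and 4 of the 12 arrays (adjusted p up to 0.119 and 0.0971, both without vehicle replicate 1).

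Several genes of the extracellular matrix were among the decreases. The fin fold and its regenerate are stiffened by collagen-like fibres and a proteoglycan matrix laid down by epidermis and mesenchyme. As bulk tissue was measured, fewer cells of a type and less RNA per cell cannot be told apart for these or any other genes. kera (keratocan), a small leucine-rich proteoglycan, read −2.12, −2.53 and −1.96 on the TCDD arrays, against 0.96, 0.67 and 0.81 on the vehicle arrays. The groups lay more than 2 units apart with little spread within either. kera fell by 3.02 on the log2 scale (SE 0.21, adjusted p = 0.000479) and was 8.1-fold lower with TCDD. postnb (periostin b), a matrix protein of fin fold and bone-forming tissue, has 2 called probe sets. The probe set with the larger change read −1.03, −2.30 and −3.20 on the TCDD arrays, against 0.37, 0.72 and 0.31 on the vehicle arrays, and the TCDD arrays spanned more than 2 units. Its difference was −2.64 (SE 0.43, adjusted p = 0.0299). The tighter postnb probe set read −1.06, −1.04 and −0.76 on the TCDD arrays, against 0.36, 0.47 and 1.12 on the vehicle arrays, with a difference of −1.60 (SE 0.18, adjusted p = 0.00565). tgfbi, a matrix protein that resembles periostin, fell by 1.37 (SE 0.22).

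Among the called genes for enzymes of the matrix, sulf2b had the largest decrease. It encodes an extracellular sulfatase that trims heparan sulfate and so alters the binding of growth factors. It read −1.69, −1.58 and −2.23 on the TCDD arrays, against 0.37, 0.36 and 1.33 on the vehicle arrays. All TCDD values lay below −1.5 and all vehicle values above 0.3, and the difference was −2.52 (SE 0.40, adjusted p = 0.0268). mmp14b, a membrane metalloproteinase gene, read −0.43, −0.30 and −0.21 on the TCDD arrays, against 0.46, 0.18 and 0.27 on the vehicle arrays and fell by 0.61 (SE 0.11). aldh18a1, which encodes the enzyme that opens proline synthesis, an amino acid rich in collagen, fell by 0.89 (SE 0.14). In the other direction, ext1c, a glycosyltransferase of heparan sulfate synthesis, read 0.69, 0.83 and 0.72 on the TCDD arrays, against −0.36, −0.65 and −0.75 on the vehicle arrays and rose by 1.33 (SE 0.16, adjusted p = 0.00758). adam9b, a membrane-bound protease gene, rose by 0.93 (SE 0.13, adjusted p = 0.0195).

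Of 36 measured extracellular matrix proteins, 3 were called and all were lower, against 0.341% called lower over all genes. The list had 14 genes above 0 and 22 below, with a median of −0.19. Of 29 matrix-modifying enzymes 2 were called, both lower, with 10 above 0 and 19 below and a median of −0.37. The called genes ext1c and adam9b, which rose, are in neither list. Several large differences in these lists were not called. The lysyl oxidase genes loxl2b and loxa, which crosslink collagen, read −2.65 (adjusted p = 0.0891) and −2.52 (adjusted p = 0.0956). For loxl2b the arrays read −2.04, −1.26 and −3.21 with TCDD, against 0.80, 0.28 and 0.38 with vehicle, with no overlap but a TCDD spread near 2 units. thbs3a (thrombospondin 3) read −1.90 (adjusted p = 0.0544), sparc (osteonectin) −0.86 (adjusted p = 0.0756) and the collagen gene col1a2 −1.58 and −1.48 on 2 probe sets. thbs1b, another thrombospondin, was high with TCDD at 1.31 (adjusted p = 0.0513). When the hybridisation level was blocked, the median of the matrix proteins was 0.00 and that of the matrix enzymes −0.11. Those values set TCDD replicate 2 alone against vehicle. Without TCDD replicate 2 and vehicle replicate 3 the medians were −0.24 and −0.36, with 5 matrix proteins called lower and 1 higher, and 1 enzyme called each way. Over all 8793 genes 41 were then called lower and 58 higher. The calls of kera, of the tighter postnb probe set and of ext1c held whichever array was left out. Those of sulf2b and tgfbi were lost without 7 and 6 of the 12 arrays (adjusted p up to 0.0935, without TCDD replicate 3), that of mmp14b without 10 (up to 0.144, without vehicle replicate 1), that of adam9b without 3 (up to 0.0757, without the same array), and those of aldh18a1 and the other postnb probe set without 6 and 8 (up to 0.0883 and 0.106, without vehicle replicate 2).

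Among the calls the largest decrease was in an oxygen-binding globin. mb encodes myoglobin, which stores oxygen in muscle and is also found in other fish tissues. It read −1.82, −1.40 and −1.84 on the TCDD arrays, against 2.70, 1.90 and 0.67 on the vehicle arrays. The TCDD arrays lay close together while the vehicle arrays spread over 2 units, and the groups stayed more than 2 units apart. mb fell by 3.45 (SE 0.49, adjusted p = 0.0185), 10.9-fold lower with TCDD. cygb1 encodes a cytoglobin, a globin found in fibroblast-like cells of vertebrates. Its probe set with the larger difference read −1.90, −0.74 and −2.09 on the TCDD arrays, against 1.46, 1.15 and 0.41 on the vehicle arrays, and the groups did not overlap. That difference was −2.58 (SE 0.46, adjusted p = 0.0427), and the other probe set, of the same transcript cluster, had −2.14 (SE 0.32, adjusted p = 0.0235). The latter read −1.59, −0.72 and −1.32 on the TCDD arrays, against 1.42, 0.99 and 0.39 on the vehicle arrays. Of 14 measured globin genes these were the 2 called, against 0.341% called lower over all genes, and the median of the list was 0.03. The 12 red blood cell markers had a median of 0.03 with none called, and the 40 skeletal muscle markers a median of 0.19 with 31 above 0. The muscle gene called was myoz1b, a Z-disc protein, which rose by 1.2 (SE 0.11, adjusted p = 0.00143). Its probe set has a median ratio below 1, like those of foxb1a and hoxb5a and unlike the other 86 called. The mb call was lost without 4 of the 12 arrays (adjusted p up to 0.0696, for TCDD replicates 1 and 3 and vehicle replicates 1 and 2), the calls of cygb1 without 9 and 4 (up to 0.15 and 0.0801, both without vehicle replicate 1), and that of myoz1b in none.

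Transcription factor genes moved in both directions. klf2a encodes a Krüppel-like factor that responds to blood flow in endothelium. It read −2.71, −2.02 and −2.00 on the TCDD arrays, against 0.86, 0.98 and 1.26 on the vehicle arrays, and no array of either group came within 2 units of the other. klf2a fell by 3.27 (SE 0.55, adjusted p = 0.0331), 9.67-fold lower with TCDD. Its paralogue klf2b lay on the other side (1.31, adjusted p = 0.112). prrx1b, a paired-type homeobox gene of limb and fin mesenchyme, read −1.01, −0.34 and −0.80 on the TCDD arrays, against 0.62, 0.27 and 1.13 on the vehicle arrays and fell by 1.39 (SE 0.25). It was the called gene of the 34 measured blastema and mesenchyme genes, against 0.739% called over all genes. The median of that list was 0.05. tox4a, a gene for a DNA-binding protein with an HMG box, fell by 0.58 (SE 0.10).

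Among those that rose, dlx4b belongs to the Distal-less homeobox family, which marks fin fold ectoderm. It read 0.65, 1.85 and 1.09 on the TCDD arrays, against −0.81, −0.71 and −0.37 on the vehicle arrays, with TCDD replicate 2 the highest, and rose by 1.82 (SE 0.29, adjusted p = 0.0268). Of its list of 23 fin homeobox genes it was the one called, against 0.739% of all genes. Uncalled in that list were dlx4a at −1.06 (adjusted p = 0.23) and dlx3b at 0.72 (adjusted p = 0.157). evx1, a homeobox gene of fin ray joints in zebrafish, read 0.47, 0.92 and 1.11 on the TCDD arrays, against −0.27, −0.80 and 0.01 on the vehicle arrays, a difference of 1.19 (adjusted p = 0.086). sox3, an SRY-box gene best known from neural progenitors, rose by 1.70 (SE 0.28, adjusted p = 0.0327) on the called probe set, while its other 2 read 1.54 and 0.16. The forkhead gene foxb1a rose by 0.88 (SE 0.15, adjusted p = 0.0331), and the homeobox gene hoxb5a by 0.64 (SE 0.11, adjusted p = 0.0413). Each of these 7 factor genes lost its call without at least 5 of the 12 arrays (klf2a 7, prrx1b 10, tox4a 9, dlx4b 5, sox3 7, foxb1a 8, hoxb5a 9), with adjusted p up to 0.132 for prrx1b.

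sox9b, a factor gene of cartilage and fin development known to fall with TCDD in zebrafish larvae, was not called. Its probe set with the larger difference read −1.22, −4.21 and −0.81 on the TCDD arrays, against 1.69, 1.47 and 0.52 on the vehicle arrays. The groups did not overlap, but the TCDD values spanned more than 3 units with replicate 2 lowest. The difference was −3.30 (SE 0.76, adjusted p = 0.0891). The other sox9b probe set read 0.03, and sox9a 0.02.

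Genes of DNA replication were lower almost throughout, though few passed the test alone. dut encodes dUTPase, which keeps uracil out of DNA. It read −0.91, −1.18 and −1.15 on the TCDD arrays, against 0.95, 0.63 and 1.19 on the vehicle arrays, with all TCDD values below −0.9 and all vehicle values above 0.6, and fell by 2.00 (SE 0.34, adjusted p = 0.0331). orc3, a subunit of the origin recognition complex, read −0.75, −1.03 and −0.59 on the TCDD arrays, against 0.86, 0.38 and 0.91 on the vehicle arrays and fell by 1.51 (SE 0.24). Outside that list, cad, the enzyme that starts pyrimidine synthesis, read −0.12, −0.20 and −0.12 on the TCDD arrays, against 0.87, 0.42 and 1.03 on the vehicle arrays and fell by 0.92 (SE 0.14). Its other probe set read −1.0 (adjusted p = 0.0789). Of the 64 measured genes of DNA replication and S phase, 63 had a difference below 0, against 49% of all genes, and the groups did not overlap with TCDD lower for 28. Over all 8793 genes such a separation was found for 18.3%, 893 with TCDD lower and 715 with TCDD higher. The list's median was −0.65, and its lowest member was dut. Without TCDD replicate 2 and vehicle replicate 3 all 64 were below 0, the median was −0.47, none was called, and 34 did not overlap with TCDD lower, against 2456 of all genes (51.8% in either direction). Uncalled members included the origin subunit gene orc5 (−1.36, adjusted p = 0.0584) and the ribonucleotide reductase gene rrm1 (−1.57, adjusted p = 0.106), which read −0.50, −0.80 and −0.36 with TCDD, against 1.38, 0.52 and 1.16 with vehicle.

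Genes of mitosis and the spindle gave a like count without a call. Of 58 measured, 52 were below 0 and 26 did not overlap with TCDD lower, and the median was −0.41. ccnb1, the mitotic cyclin B1, read −0.34, −0.37 and −0.47 on the TCDD arrays, against 0.24, 0.54 and 1.19 on the vehicle arrays, a difference of −1.05 (adjusted p = 0.165), and lmnb1 (lamin B1) had −1.01 and −0.15 on 2 probe sets. kif20a, a mitotic kinesin gene, went the other way on 1 of its 2 probe sets (2.23, adjusted p = 0.0605). The scores of the replication list were −0.15, −0.35 and −0.15 on the TCDD arrays and 0.62, 0.02 and 0.78 on the vehicle arrays. The vehicle scores ranged widely, with vehicle replicate 2 not far above the highest TCDD arrays. The mitosis scores were −0.40, −0.35 and −0.30 on the TCDD arrays and −0.01, 0.08 and 0.47 on the vehicle arrays, so the groups were apart in both lists. Leaving out 1 array moved the median of the replication list between −0.83 and −0.53, and that of the mitosis list between −0.49 and −0.27. Without both TCDD replicate 2 and vehicle replicate 3 the mitosis median was −0.29, with 49 of 58 below 0. The calls of dut, orc3 and cad were lost without 8, 5 and 4 of the 12 arrays (adjusted p up to 0.119, 0.109 and 0.0971, all without vehicle replicate 1).

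**Figure D3:**
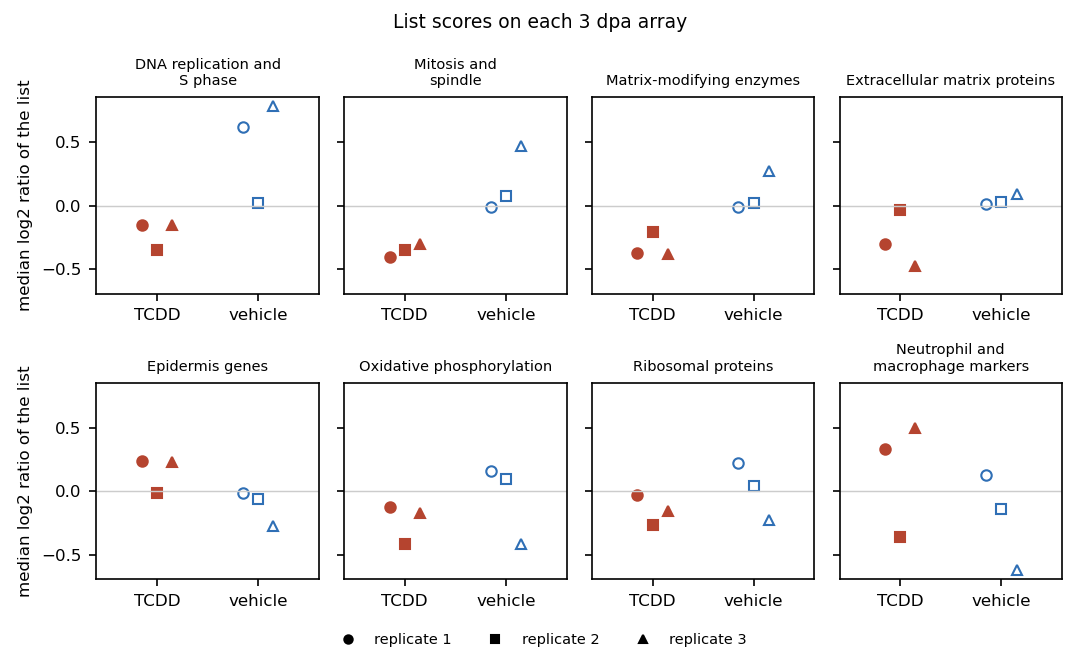
Each panel shows for 1 gene list the median log2 ratio of its genes (vertical) on each 3 dpa array, TCDD at the left in red and vehicle at the right in blue, with a symbol shape for each replicate. TCDD scores lie below all vehicle scores for replication, mitosis and both matrix lists and above them for epidermis genes, while the scores overlap for oxidative phosphorylation, ribosomal proteins and neutrophil and macrophage markers.

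Smaller decreases included called genes of ribosome assembly, for which no list was made, and of translation. pwp2h, wdr18 and nop58 encode factors that process ribosomal RNA in the nucleolus. wdr18 read −0.55, −0.69 and −0.81 on the TCDD arrays, against 0.55, 0.23 and 0.12 on the vehicle arrays and fell by 0.98 (SE 0.12, adjusted p = 0.00684). pwp2h fell by 1.02 (SE 0.17) and nop58 by 0.86 (SE 0.16), with −1.15 on its other probe set. polr3b, a subunit of the RNA polymerase that makes transfer RNA, fell by 0.52 (SE 0.09), and eif2s1a, a subunit of the factor that brings the initiator transfer RNA to the ribosome, by 0.56 (SE 0.09). Just outside the threshold lay exosc2, a subunit of the RNA exosome (−0.60, adjusted p = 0.0505). The wdr18 call held whichever array was left out, while those of pwp2h, nop58, polr3b and eif2s1a were lost without 8, 11, 9 and 8 of the 12.

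Lists of abundant housekeeping genes had medians a little below 0. Of 74 ribosomal protein genes 72 were below 0, with a median of −0.17 and none called. Of 85 genes of oxidative phosphorylation 72 were below 0, with a median of −0.19 and none called. Translation factors had 36 of 43 below 0 with eif2s1a called. The proteasome had 33 of 43 and mitochondrial ribosomal proteins 45 of 59, with none called. The medians of these lists were −0.20, −0.11 and −0.09. Over all genes 49% were below 0 and 0.739% were called. Ribosomal protein scores were −0.03, −0.26 and −0.15 on the TCDD arrays and 0.22, 0.04 and −0.22 on the vehicle arrays, so vehicle replicate 3 lay with the TCDD arrays and the groups overlapped. Those of oxidative phosphorylation were −0.12, −0.41 and −0.17 on the TCDD arrays and 0.16, 0.10 and −0.41 on the vehicle arrays, where TCDD replicate 2 and vehicle replicate 3 lay together. Their medians ranged from −0.29 to −0.07 and from −0.40 to −0.05 over fits that left out 1 array. With all arrays, TCDD was lower without overlap for 9 of 74 and 12 of 85 genes, and higher for 0 and 1. Over all 8793 genes TCDD was lower without overlap for 893 and higher for 715. Without TCDD replicate 2 and vehicle replicate 3 the medians were −0.23 and −0.31. TCDD was then lower without overlap for 52 of 74 and 63 of 85 genes, and higher for 0 and 7. Over all 8793 genes such separations then numbered 2456 with TCDD lower and 2096 with TCDD higher. trap1, a mitochondrial chaperone gene of the Hsp90 family, fell by 0.82 (SE 0.12), a call lost without 3 of the 12 arrays. Of 48 heat shock and endoplasmic reticulum chaperones none was called and 24 lay on either side of 0.

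Of the called genes that act on chromatin, histh1l1 and smarca1 rose, and no list of such genes was made. histh1l1, annotated as a linker histone, read 0.44, 0.54 and 0.75 on the TCDD arrays, against −0.55, −0.65 and −0.93 on the vehicle arrays, with every TCDD value above 0.4 and every vehicle value below −0.5. It rose by 1.29 (SE 0.14, adjusted p = 0.00533). smarca1, an ATPase that slides nucleosomes, rose by 1.22 (SE 0.20, adjusted p = 0.0303), with TCDD replicate 2 the highest array. The call of histh1l1 held whichever array was left out, and that of smarca1 was lost without 7 of the 12 (adjusted p up to 0.119, without vehicle replicate 1).

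Genes of lipid mediators and inflammation came next. ptgdsb.2, a lipocalin-type prostaglandin D synthase gene, read 1.67, 0.85 and 2.17 on the TCDD arrays, against −1.39, −1.49 and −1.46 on the vehicle arrays. The vehicle values lay within 0.1 of each other and TCDD replicate 2 was the lowest of its group, still more than 2 units above them. ptgdsb.2 rose by 3.01 (SE 0.33, adjusted p = 0.00534), an 8.06-fold change (4.82 to 13.5). Its paralogue ptgdsb.1 read 0.93, −0.59 and 1.12 on the TCDD arrays, against 0.00, 0.11 and −2.11 on the vehicle arrays and was not called (1.15, adjusted p = 0.399). Of 10 measured prostaglandin synthesis genes ptgdsb.2 was called, against 0.739% of all genes. In that list 8 were above 0 and the median was 0.28. ptgr1.1, a reductase gene that inactivates leukotrienes and prostaglandins, fell by 1.03 (SE 0.18). Annexin A1 proteins bind membrane lipids and damp inflammation in mammals, and anxa1d rose by 1.67 (SE 0.25, adjusted p = 0.0254) and 1.24 (SE 0.20, adjusted p = 0.0288) on its 2 probe sets.

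c6.2, a gene for a late component of the complement pathway, read −0.79, −1.21 and −0.71 on the TCDD arrays, against 0.65, 0.61 and 0.73 on the vehicle arrays. The vehicle arrays were nearly equal, and c6.2 fell by 1.57 (SE 0.15, adjusted p = 0.00149). Of 32 inflammation genes ptgdsb.2 was the one called, against 0.739% of all genes. In that list 18 were above 0 and the median was 0.05. The called genes c6.2, anxa1d and ptgr1.1 are not in it. cfd, complement factor D, read −0.26, −0.27 and −0.44 on the TCDD arrays, against 3.16, 1.31 and 4.69 on the vehicle arrays, a difference of −3.37 (adjusted p = 0.0771) in which the vehicle arrays spanned more than 3 units. The collagenase gene mmp13a read 1.80, 0.10 and 1.72 on the TCDD arrays, against 0.13, −0.57 and −1.63 on the vehicle arrays and overlapped between groups, with TCDD replicate 2 among the vehicle values. The calls of ptgdsb.2 and c6.2 held whichever array was left out, while those of anxa1d were lost without 4 and 7 arrays (adjusted p up to 0.0855 and 0.0991) and that of ptgr1.1 without 8.

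Further calls were in genes of ion transport, membranes and the cytoskeleton, for which no list was made. ano1a encodes a calcium-activated chloride channel. It read 1.43, 0.78 and 1.88 on the TCDD arrays, against −0.67, −0.72 and −1.34 on the vehicle arrays and rose by 2.27 (SE 0.37, adjusted p = 0.0296), while its other probe set read 0.14. slc4a2a, an anion exchanger gene, rose by 0.87 (SE 0.14, adjusted p = 0.0304) on 1 of 3 probe sets, with 0.21 and 0.04 on the others. nherf1a, a scaffold of apical membrane transporters, fell by 0.55 (SE 0.09). s1pr1, the receptor for sphingosine 1-phosphate that guides vessels and leukocytes, rose by 1.79 (SE 0.31, adjusted p = 0.0382) on 1 probe set and read 0.18 on the other. adipor2, an adiponectin receptor gene, rose by 0.67 (SE 0.12, adjusted p = 0.0413), with 0.57 on its other probe set. chmp5b, which acts in sorting membrane proteins to lysosomes, rose by 1.28 (SE 0.20, adjusted p = 0.0268) on 1 probe set and read 0.44 on the other. nsg2, a vesicle protein gene best known from neurons, rose by 1.5 (SE 0.24, adjusted p = 0.0285) on 1 probe set and read 0.02 on the other.

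Of the genes for the actin skeleton and adhesion, fscn1a bundles actin in cell protrusions. It read 0.75, 0.69 and 0.87 on the TCDD arrays, against −0.24, −0.60 and −0.04 on the vehicle arrays and rose by 1.06 (SE 0.17, adjusted p = 0.0268), with 0.85 and 0.39 on 2 further probe sets. The gene limch1b, whose product activates non-muscle myosin in human cells, rose by 1.01 (SE 0.17, adjusted p = 0.0337), with 0.93 on its other probe set. sdk2b, an adhesion molecule of the immunoglobulin family, read 0.50, 0.65 and 0.85 on the TCDD arrays, against −0.42, −0.33 and −0.39 on the vehicle arrays and rose by 1.05 (SE 0.10, adjusted p = 0.00234). nde1, a partner of the motor dynein, rose by 0.79 (SE 0.12, adjusted p = 0.0268), with 0.57 and 0.05 on 2 further probe sets. Among these transport, membrane and cytoskeletal genes the call of sdk2b held whichever array was left out. Each of the others named was lost without 5 to 9 of the 12 arrays, and the highest adjusted p was 0.15, for adipor2 without vehicle replicate 1.

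Epidermis genes mostly read above 0, and none was called. Of 46 measured, 37 were above 0 and 14 did not overlap with TCDD higher, against 715 of all 8793 genes, while 4 did not overlap with TCDD lower, against 893. The median was 0.33. Without TCDD replicate 2 and vehicle replicate 3 the median was again 0.33, with 34 genes above 0 and 1 called lower. Over all 8793 genes 41 were then called lower and 58 higher. The scores were 0.24, −0.01 and 0.23 on the TCDD arrays and −0.01, −0.06 and −0.27 on the vehicle arrays, so the groups were just apart and TCDD replicate 2 lay next to vehicle replicate 1, the difference shown in the plot of list scores. pkp1b (plakophilin 1), a desmosome protein gene, read 1.46 (adjusted p = 0.0928), and the calcium-binding protein gene icn (ictacalcin) 1.37 and 1.08 on 2 probe sets. The keratin gene krt91 lay far on the other side, with −1.71, −0.40 and −1.73 with TCDD, against 0.31, 0.58 and 2.46 with vehicle, a difference of −2.40 (adjusted p = 0.086). col17a1b, a collagen that anchors basal epidermis, read −1.32 and −0.64 on 2 probe sets. The median of the list was 0.11 when the hybridisation level was blocked, which sets TCDD replicate 2 alone against vehicle. It lay from 0.19 to 0.38 over fits that left out 1 array.

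Tetrahydrobiopterin metabolism and other pathways supplied the remaining calls. gchfr encodes the protein that restrains GTP cyclohydrolase, the entry enzyme of biopterin and of fish pteridine pigments. It read 1.05, 1.2 and 0.82 on the TCDD arrays, against −1.21, −1.48 and −0.84 on the vehicle arrays, and no array of either group came within 1 unit of the other. gchfr rose by 2.2 (SE 0.18, adjusted p = 0.00103). tph2, a tryptophan hydroxylase gene whose enzyme uses biopterin to make serotonin, rose by 1.18 (SE 0.16, adjusted p = 0.0125). asip2b, an agouti signalling protein gene of pigment patterning, read −0.97, −0.54 and −0.87 on the TCDD arrays, against 1.27, 0.74 and 1.15 on the vehicle arrays and fell by 1.85 (SE 0.29, adjusted p = 0.0268). Of 18 pigment cell markers gchfr was the one called, against 0.739% of all genes. Of these markers 11 were below 0 and the median was −0.09, and asip2b is not among them. The melanin synthesis gene dct read −1.55 (adjusted p = 0.116).

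rbp4, the retinol carrier of plasma, read −0.68, −1.11 and −0.56 on the TCDD arrays, against 0.83, 0.68 and 0.26 on the vehicle arrays and fell by 1.37 (SE 0.20). It was the called gene among 20 of retinoic acid and retinol transport, against 0.739% called over all genes. The median of that list was −0.11. The retinoic acid synthesis gene aldh1a2 read −1.13 (adjusted p = 0.352). pik3r1, the regulatory subunit of PI3 kinase, read −1.41, −0.88 and −1.54 on the TCDD arrays, against 0.34, 0.21 and 0.30 on the vehicle arrays and fell by 1.56 (SE 0.28), with −1.14 (adjusted p = 0.0892) on a further probe set. Lower calls also came from birc6-as2, annotated as an antisense transcript (−1.5, SE 0.20, adjusted p = 0.0131), hm13, a signal peptide peptidase (−0.85, SE 0.15, adjusted p = 0.0391), and dpp3, a cytosolic peptidase (−0.80, SE 0.14, adjusted p = 0.0352). The call of gchfr held whichever array was left out. Without some of the 12 arrays the calls were lost for tph2 (2 arrays), rbp4 (2), birc6-as2 (3), asip2b (6), hm13 (7), pik3r1 (9) and dpp3 (9), with adjusted p up to 0.137 for pik3r1 without vehicle replicate 1.

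The 20 called probe sets with no single symbol were 7 higher and 13 lower, with differences from −2.5 to 3.46. They are not named, and their place in any list is unknown. Just outside the threshold, beside exosc2, were lin7b, a scaffold of epithelial junctions (0.90, adjusted p = 0.0501), pfkfb4b, a regulator of glycolysis (−1.63, adjusted p = 0.0502), the guidance cue gene sema3d (−1.24, adjusted p = 0.0513) and yipf5, a Golgi protein gene (−0.63, adjusted p = 0.0513). The named calls closest to it on the inside were nop58 (−0.86, adjusted p = 0.0499), and prrx1b and the larger cygb1 change (adjusted p = 0.0427 each).

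**Figure D4:**
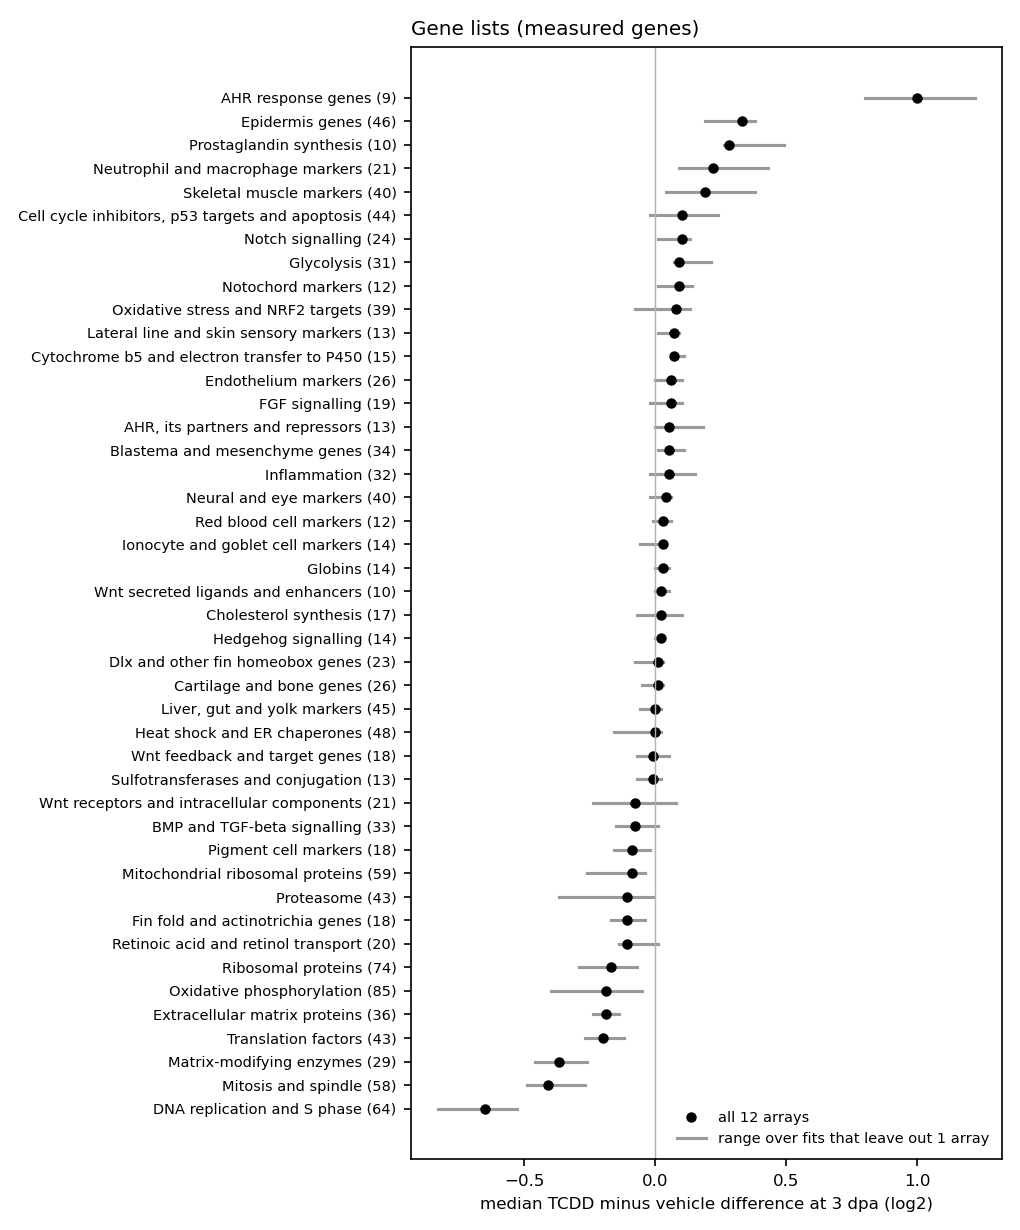
For each of the 44 gene lists the black point is the median TCDD minus vehicle difference at 3 dpa (log2, horizontal) over the measured genes, whose number stands in parentheses. Grey bars span the medians over the 12 fits that left out 1 array each. AHR response genes lie highest at 1.0 and genes of DNA replication lowest at −0.65, and most lists lie near 0. The lists were chosen with earlier results of these data known.

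Markers were used to check the tissue and to look for other cells. At least 1 probe set with a median ratio of 1 was found for 43 of 46 measured epidermis genes, against 82.7% of all genes. It was found for 4 of 12 red blood cell markers, 18 of 45 of liver, gut and yolk, 19 of 40 neural and eye markers and 4 of 12 notochord markers. For neutrophil and macrophage markers it was 20 of 21, for pigment cells 14 of 18 and for endothelium 16 of 26. Ionocytes and goblet cells had 9 of 14, lateral line and skin sensory cells 8 of 13 and skeletal muscle 23 of 40. The measure thus does not set epidermis apart from every other cell type. The remaining probe sets have a median below 1. Since the values are ratios, no level of these markers can be given. Median differences were 0.00 for liver, gut and yolk (rbp4 lower), 0.04 for neural and eye (sox3 higher), 0.06 for endothelium (26 measured, klf2a lower and s1pr1 higher) and 0.09 for notochord markers. Of the endothelium markers 21 were above 0. Their scores were −0.04, 0.00 and −0.13 on the TCDD arrays, against −0.30, −0.27 and −0.24 on the vehicle arrays. Without TCDD replicate 2 the endothelium median was 0.00. Lists of ionocytes and goblet cells and of lateral line and skin sensory cells had none called and medians of 0.03 and 0.07. Over all genes 0.739% were called. Muscle scores were −0.19, −0.18 and 0.35 on the TCDD arrays and −0.14, −0.04 and −0.29 on the vehicle arrays, high on TCDD replicate 3 alone. What part such cells have in the calls was not tested.

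The earlier day shows how the 3 dpa calls stood in other fins. The 2 dpa arrays are separate samples, although the same fit lent both days 1 estimate of the spread. On both days the GAPDH 5′ minus 3′ difference was higher on every TCDD array than on every vehicle array. Its part in the likeness of the days was not tested. Of the 89 probe sets called at 3 dpa, 88 had a difference of the same sign at 2 dpa, against 69.5% of all probe sets. On 81 the 2 dpa groups did not overlap in the same direction. Separation of the 2 dpa groups in either direction was seen for 20% of all probe sets. The calls were chosen with a spread that includes the 2 dpa arrays, which favours such separation. The exception in sign was hoxb5a, at 0.64 on 3 dpa and −0.10 on 2 dpa. The median 2 dpa difference was 1.02 for the probe sets called higher and −0.98 for those called lower. Of the 89, 18 were called on both days, and 7 of the 25 called at 2 dpa (0.161%) were not called at 3 dpa.

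Differences at 3 dpa were larger in size for 78 of the 89, a count that the choice of 3 dpa calls favours. At 2 and 3 dpa, in that order, rspo1 had differences of 2.95 and 4.19, klf2a −2.52 and −3.27, the larger postnb change −1.58 and −2.64, and anxa1d 0.37 and 1.67. cyp1a ran the other way, with 8.70 and 7.92, as did cyp1c1 with 6.06 and 5.11 and mb with −3.66 and −3.45. In the test of the difference between the days limma called 0 of 15502 probe sets, with 226 at an unadjusted p under 0.05 (1.46%), 25 of them among the 89. The fit that blocked on the hybridisation level rests at 3 dpa on TCDD replicate 2 alone, so its count is not given. For no named gene was a difference between the days shown.

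**Figure D5:**
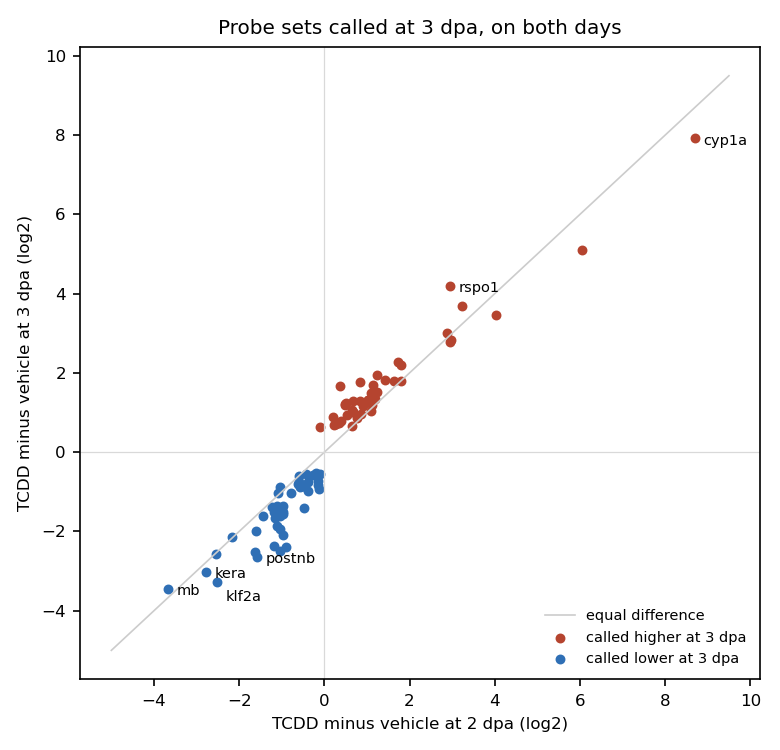
Each point is a probe set called at 3 dpa, with its TCDD minus vehicle difference at 3 dpa (log2, vertical) against that at 2 dpa (log2, horizontal), red where called higher (44) and blue where called lower (45). Of the 89 points 88 have the same sign on both days, and 78 lie farther from 0 on the vertical scale than on the horizontal, the grey line marking equal differences.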

How the data were processed

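Affymetrix zebrafish arrays were hybridised with amplified RNA from pools of fins, per the labels' protocols. The deposited values are linear ratios: the authors computed expression with GCRMA, per the submitters' processing notes, whose version is not given in the sources used here. The scaling was read from the values, not stated. Of 15617 rows, 12064 have a median ratio over the 12 arrays of 1 (within 1e-06), 3553 have a lower one and none a higher one, so each probe set appears to be divided by its own median, with a lower limit on the divisor. Scanner intensities and detection calls were not analysed here, so the signal behind a ratio is unknown and the number of arrays limits the precision.

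Ratios (0.000773 to 62.2) were log2-transformed without a pseudocount, and 115 control rows were left out. The remaining 15502 probe sets were fitted with limma 3.58.1 in R 4.3.3 (lmFit and eBayes) with 4 group means over all 12 arrays. P-values were adjusted over all 15502 by Benjamini-Hochberg, with 0.05 as the threshold, and all adjusted p values are from these moderated tests. An exact permutation test of 3 arrays against 3 cannot go below 0.1, so none was used. Symbols came from the platform annotation, updated through Entrez IDs (10711 matched, 84 not): 10795 probe sets have 1 symbol, 135 several and 4572 none. For gene lists, the probe sets of a gene were averaged, counts of calls took any probe set, and a score is the median over genes on an array.

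Named were the 15 called probe sets of largest difference per direction with a usable symbol (the first 10 with every array), other called ones by role, called list members and up to 4 uncalled ones of lowest p per list, the CYP1 and AHR genes with rspo1, sox9a and sox9b, and the 5 nearest the threshold. Members, lists and alternatives were chosen with earlier results of these data known, and the role groups after the values were seen. Of the 68 called probe sets with a usable symbol, 1 is not reported here. Alternatives were the 3 dpa arrays alone, a replicate block, other variance moderation, centring, quantile normalization, pseudocounts of 0.01 and 0.1, median-1 probe sets, a hybridisation block, array weights, and each array left out. The scripts were tested on simulated data. Python 3.11.15 with pandas 2.3.3 and matplotlib 3.10.9 made the summaries and figures.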

Additional observations from a re-analysis of the deposited data

Results flagged for a closer look

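In the control probe sets, which enter no comparison, the 5′ minus 3′ difference for GAPDH averaged 0.299 ± 0.163 on the TCDD arrays and −0.039 ± 0.104 on the vehicle arrays of 3 dpa (SD, n = 3 each). The difference of 0.338 (log2) stands above the level in the vehicle arrays, and all 3 TCDD arrays lay above all 3 vehicle arrays. At 2 dpa the arrays read 0.252, 0.169 and 0.278 with TCDD and 0.006, 0.006 and 0.029 with vehicle, again with no overlap. This ratio is a measure of RNA and labelling quality, and its part in the results was not tested.

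A probe set lay on opposite sides of vehicle on the 2 days. fabp1a, a fatty acid-binding protein gene of liver and gut, had on 1 of its 2 probe sets a TCDD minus vehicle difference of 0.24 at 3 dpa, with −0.08, 0.10 and −0.26 on the TCDD arrays, against −0.32, −0.37 and −0.28 on the vehicle arrays. At 2 dpa its difference was −0.13, with all TCDD arrays below all vehicle arrays. The difference between the days, 0.37, did not pass limma's test (adjusted p = 1). The other probe set read 0.05 at 3 dpa and 0.00 at 2 dpa.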

How the results depend on the processing

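No called probe set with a symbol changed sign under any alternative, but 41 uncalled named probe sets and 18 of the 44 list medians did under at least 1, mostly values near 0. The count of 89 (44 higher, 45 lower) moved both with the arrays used and with how they were weighted or blocked. Single arrays left out gave 28 to 391 calls, 16 to 209 higher and 11 to 182 lower, the highest without TCDD replicate 2. Leaving out TCDD replicate 3 of 2 dpa, which enters this contrast only through the spread, gave 294, with all 89 among them. Leaving out TCDD replicate 2 and vehicle replicate 3, chosen after seeing the data, gave 143 (76 higher). The 6 arrays of 3 dpa alone gave 6 (3 higher, 3 lower), unmoderated variances 24 (15 higher, 9 lower), blocking on hybridisation level 217 (173 higher) and array weights 426 (195 higher, 231 lower). The cause of these moves in the count was not tested. At 3 dpa the fit blocked on hybridisation level sets TCDD replicate 2 alone against vehicle. Its count therefore cannot be compared with those of the other fits. The 3 dpa arrays alone leave fewer arrays to estimate the spread. Spread also differed by day. The SD about the group mean was 0.287, 0.385 and 0.329 (TCDD) and 0.205, 0.216 and 0.315 (vehicle) at 3 dpa. At 2 dpa it was 0.218, 0.209 and 0.331 (TCDD) and 0.162, 0.147 and 0.221 (vehicle). The SEs pool both days, so they need not match the spread of the 3 dpa pools. Robust or trended moderation, centring, quantile normalization, pseudocounts and median-1 probe sets gave 87 to 105. Of the 89, 4 with a symbol were called in every fit tried: rspo1, the mpx-annotated probe set, fzd7a and kera. Separated groups, 2525 in all, numbered 3287 to 5435 with 1 array of 3 dpa left out and 7491 without both TCDD replicate 2 and vehicle replicate 3, as fewer arrays separate more readily. limma called 0 probe sets for the difference between days (226 at unadjusted p under 0.05).

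Replicate numbers did not steadily pair the arrays: deviations of same-numbered TCDD and vehicle arrays of 3 dpa correlated at 0.436, −0.252 and −0.128. Over all same-numbered arrays of different groups the highest correlation was 0.493, for TCDD replicate 2 at 2 and 3 dpa. With replicate number as a block, 147 were called (70 higher, 77 lower), 75 of them among the 89. Of the 816 values for the 68 called probe sets with a symbol when single arrays were left out, 471 stayed called and 345 did not. The ratios hold no signal level. If the divisor has a lower limit, as it appears, a median ratio below 1 marks a dim probe set. Of the 89 called, 3 have such a median: those of myoz1b, foxb1a and hoxb5a. Among the rest dim probe sets cannot be told from bright ones, and 3 pools per group limit the precision.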

Other observations

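Several genes of glycolysis were high on part of the TCDD arrays. Of 31 measured, 21 were above 0, none was called and the median difference was 0.09. pfkpa, a phosphofructokinase gene, read 2.94, 0.27 and 2.36 on the TCDD arrays, against −0.44, −0.57 and −0.66 on the vehicle arrays, and the lactate transporter gene slc16a3b read 3.72, −0.52 and 2.90 on the TCDD arrays, against −0.05, 0.05 and −0.64 on the vehicle arrays. TCDD replicates 1 and 3 were far above the vehicle arrays for both genes and TCDD replicate 2 was near or among them. The differences were 2.41 (adjusted p = 0.157) and 2.25 (adjusted p = 0.327). With the hybridisation level blocked, which sets TCDD replicate 2 alone against vehicle, that of slc16a3b was −0.31. aldocb, an aldolase gene, had 1.94 and 0.67 on 2 probe sets, and the angiogenic growth factor gene vegfaa 1.03 (adjusted p = 0.156).

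Signalling lists not described above had medians near 0. FGF signalling had 0.06 over 19 genes, hedgehog signalling 0.02 over 14, and Notch signalling 0.10 over 24 with 20 above 0, and none of these genes was called. The follistatin gene fsta, which binds activin, read 1.78 and 0.13 on 2 probe sets, the receptor gene fgfr2 −1.51 and −0.08, and boc, a hedgehog co-receptor gene, −1.43 and −1.31 on 2 probe sets. The BMP and TGF-beta list had tgfbi called among 33, against 0.739% called over all genes, and a median of −0.08. Cell cycle inhibitors and p53 targets had 24 of 44 above 0, none called and a median of 0.10. Cholesterol synthesis genes had 11 of 17 above 0 with none called, and hspb1, a small heat shock protein gene, read −1.07 (adjusted p = 0.0756) at 3 dpa, with −1.91 at 2 dpa.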
